A study of Mus musculus with 22 samples.

Results

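The 38 genes described here are those of brain endothelium, the cells that line brain vessels, and of the blood-brain barrier that these cells form. They were chosen by name, with earlier results of these data known. They comprised 7 barrier transporters, 3 tight junction genes, 5 adhesion molecules, 15 genes of endothelial cells in general, 5 genes of VEGF and angiopoietin signalling, and 3 transcription factors. All 38 had a probe set among the 18820 genes measured, and 37 had a mean above a background measure of 3.87 on the log2 scale. Selp, the P-selectin gene, lay below it, with array values from 2.98 to 3.74. Sele, the E-selectin gene, lay above it on 20 of 22 arrays and Angpt2, the angiopoietin-2 gene, on 12 arrays.

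The hypothalamus of 22 male C57BL/6 mice was measured, 1 array per mouse. The mice were 6 weeks old, weighed about 20 g, were housed singly and ate freely. Tumour-bearing mice had received cells of Lewis lung carcinoma, a transplantable mouse lung tumour, in a hind-leg muscle under anaesthesia, and 5 were killed on day 10, 7 on day 14 and 6 on day 17. The 4 control mice were killed on day 14, and the labels do not say whether they had a mock injection, so days 10 and 17 were set against controls of another day. The same 4 controls stand in all 3 comparisons. The study's title concerns food intake in cachexia, the wasting that tumours cause. In whole hypothalamus, more cells of a type and more RNA per cell cannot be told apart.

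Brain endothelial cells are sealed to each other by tight junctions and move glucose, amino acids, lipids and hormones by dedicated transporters, while efflux pumps return many compounds to the blood. In inflammation, endothelium displays adhesion molecules that hold leukocytes, and it stores von Willebrand factor, which tethers platelets. VEGF and angiopoietin receptors govern vessel growth and stability, and Sox17, Sox18 and the Wnt effector Lef1 are transcription factors of this lineage. Parts of the hypothalamus, such as the median eminence, have leaky vessels that carry Plvap.

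Few members changed, and all that passed the test were higher in tumour-bearing mice. The test was limma's moderated test with Benjamini-Hochberg adjustment over all 18820 genes, and a gene was called at an adjusted p below 0.05. On day 10, 0 of 38 members were called, against 0.106% of all genes (0.101% higher). At an unadjusted p below 0.05, 7 members were higher and 1 was lower on day 10, where 5.27% and 5.43% of all genes were. On day 14, 3 members rose, against 0.218% of all genes (0.197% higher): Slc2a1, Mfsd2a and Vwf. On day 17, 6 members rose, against 1.12% of all genes (0.436% higher): Slc2a1, Mfsd2a, Icam1, Vwf, Adgrl4 and Adamts1. The unadjusted counts were 12 higher and 2 lower on day 14 (background 4.28% and 6.18%) and 13 higher and 2 lower on day 17 (background 6.13% and 10.5%). The F test for any difference between the 4 groups called 2 members, Slc2a1 and Vwf, against 0.335% of all genes.

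Over all 38 members, the called ones included, changes were mostly small and upward. The mean was above that of the controls in 29 of 38 members on day 10, 28 on day 14 and 28 on day 17. The median log2 change over the members was 0.11, 0.16 and 0.14 on the 3 days, where the median over all genes was 0.00, -0.00 and -0.01. On day 17, 9 members had every tumour array above every control and 1 had every tumour array below, where the background was 1.66% and 3.3% of all genes. These counts were 5 and 0 on day 10 (background 2.21% and 2.24%) and 2 and 1 on day 14 (background 0.776% and 1.06%).

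**Figure D1:**
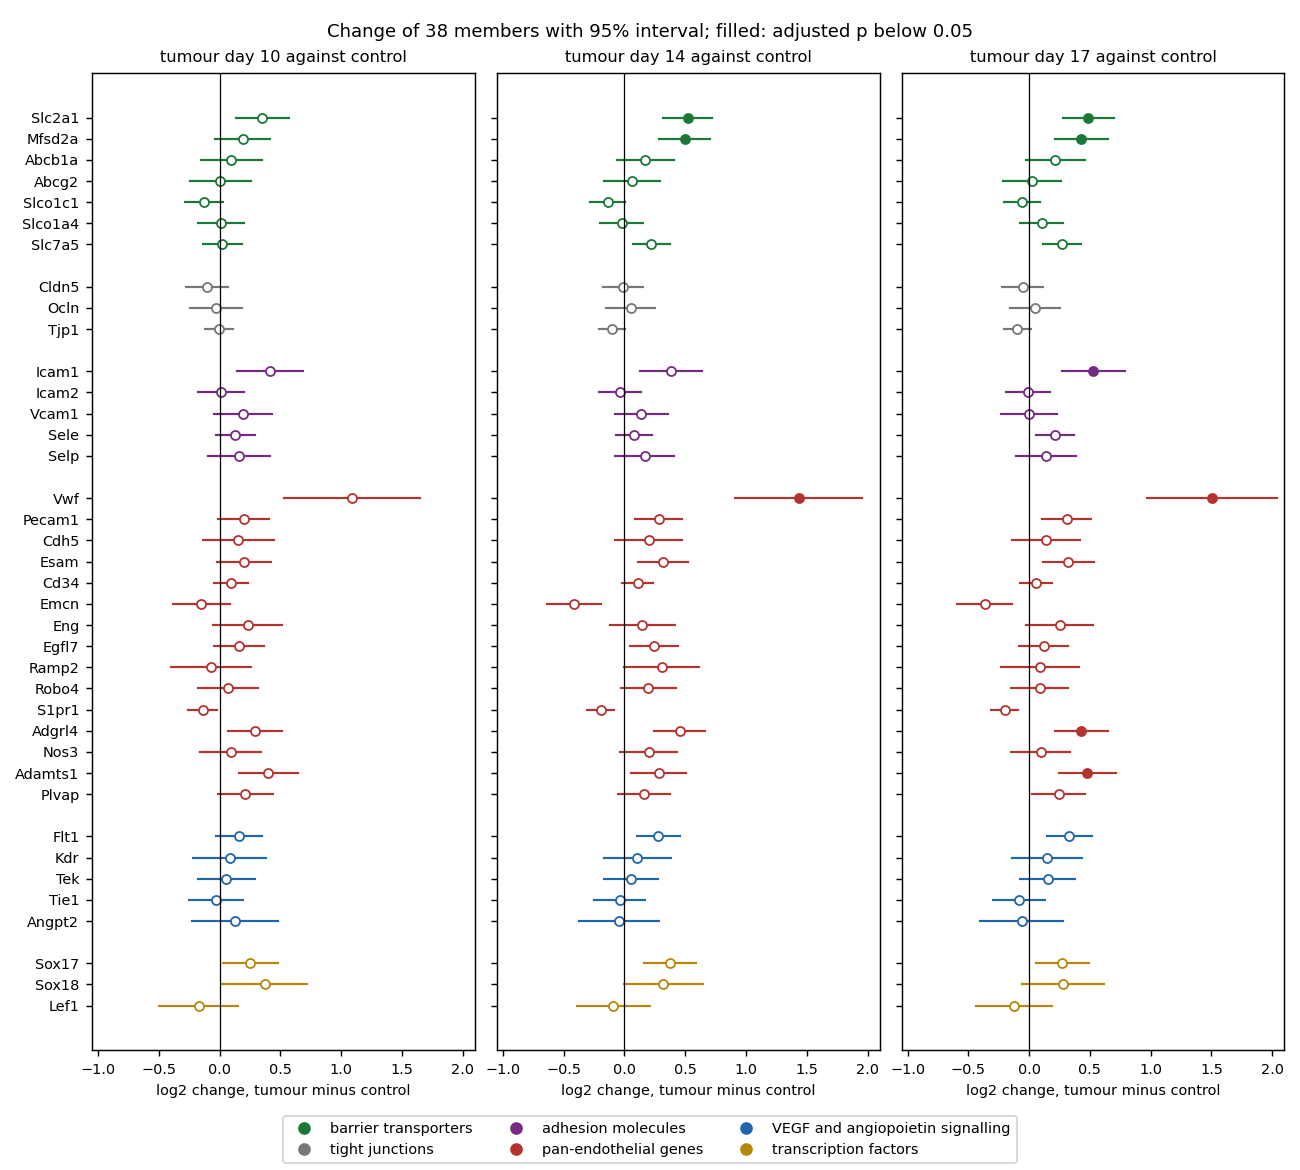
Log2 change of each member, tumour-bearing minus control, on days 10, 14 and 17 (horizontal axis), with the 95% interval of the fit; members are ordered and coloured by role, and filled points have an adjusted p below 0.05. Vwf lies furthest to the right in all 3 panels, the 3 tight junction genes lie near 0, and Emcn and S1pr1 lie to the left.

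Among the 7 barrier transporters, the glucose and lipid carriers rose and the efflux pumps and organic anion carriers gave no call. Slc2a1, which encodes GLUT1, the glucose transporter of barrier endothelium that astrocytes also carry, had log2 values of 10.10, 10.03, 9.89 and 10.30 in controls 1 to 4. It had 10.46, 10.50, 10.29, 10.50 and 10.40 on day 10, a lowest, median and highest of 10.11, 10.69 and 10.79 on day 14, and of 10.46, 10.55 and 10.71 on day 17. All 6 day 17 arrays and 6 of 7 day 14 arrays lay above every control, and replicate 6 of day 14 lay within the controls. The change was 0.35 ± 0.10 (SE) on day 10 (limma adjusted p = 0.225), 0.52 ± 0.10 on day 14 (adjusted p = 0.0182) and 0.49 ± 0.10 on day 17 (adjusted p = 0.022), or 1.43-fold and 1.40-fold on the last 2 days.

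Mfsd2a, the carrier of lysophosphatidylcholine lipids whose presence in endothelium holds down vesicle transport across the barrier, had 8.18, 8.06, 7.79 and 8.57 in the controls. Day 10 gave 8.31, 8.42, 8.26, 8.55 and 8.16, day 14 ran from 8.44 through a median of 8.69 to 8.78, and day 17 from 8.51 through 8.58 to 8.64. The controls spread more widely than any tumour-bearing group (SD 0.32, against 0.15, 0.13 and 0.06). Control 4 lay above every day 10 array, above the lowest arrays of day 14 and just under the day 17 median. The change was 0.50 ± 0.10 on day 14 (limma adjusted p = 0.0363) and 0.43 ± 0.10 on day 17 (adjusted p = 0.0458). On day 10 it was 0.19 ± 0.11 (adjusted p = 0.55).

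The RefSeq table (GRCm38.p6) held a promoter window, 250 bases before to 50 after the annotated start, for 24 of the 38 members, 32 windows in all. Of the called members, Slc2a1, Mfsd2a, Icam1, Adgrl4 and Adamts1 had a window. The windows were searched on both strands for ACGTG, the core of the hypoxia response element, GGNNTTTCC, a form of the NF-kB site, and ACANNNTGT, a form of the glucocorticoid receptor site. The first was present in 18.75% of member windows and 19.62% of all 32851 windows, the second in 9.38% and 5.82%, and the third in 6.25% and 6.85%. The 250 bases before the start of both called transporters are shown because each holds the hypoxia core, in capitals, in a member that rose on day 14. Slc2a1 lies at chr4:119108495-119108744 on the plus strand with a match 36 bases before the start, and Mfsd2a at chr4:122961189-122961438 on the minus strand with matches 107 and 9 bases before it.
Slc2a1: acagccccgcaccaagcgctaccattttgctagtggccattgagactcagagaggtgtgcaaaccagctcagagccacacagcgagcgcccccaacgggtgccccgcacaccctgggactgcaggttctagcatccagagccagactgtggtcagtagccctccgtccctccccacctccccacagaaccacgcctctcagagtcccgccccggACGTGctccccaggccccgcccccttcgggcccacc
Mfsd2a: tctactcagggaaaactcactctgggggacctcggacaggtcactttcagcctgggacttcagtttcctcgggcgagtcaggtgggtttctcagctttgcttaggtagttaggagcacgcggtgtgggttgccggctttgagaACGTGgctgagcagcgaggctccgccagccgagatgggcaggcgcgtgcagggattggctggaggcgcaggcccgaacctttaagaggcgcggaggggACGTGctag

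Of the other transporters, Slc7a5, which carries large neutral amino acids, had the next largest changes. Its values ran from 8.63 to 8.80 in the controls, 8.58 to 8.82 on day 10, 8.75 to 9.13 on day 14 and 8.85 to 9.10 on day 17. All day 17 arrays lay above every control, yet the change of 0.27 ± 0.07 did not pass the test (limma adjusted p = 0.0766). Slc7a5 was called on day 17 with a mean-variance trend, with array weights, after median centring and with the replicate number as a block. Abcb1a, the P-glycoprotein efflux pump, had 7.19, 7.04, 7.13 and 7.07 in the controls and 7.38, 7.08, 6.91, 7.52 and 7.12 on day 10. Its lowest, median and highest values were 7.09, 7.17 and 7.61 on day 14 and 7.07, 7.35 and 7.53 on day 17, so the groups overlapped. The day 17 change of Abcb1a was 0.21 ± 0.12 (adjusted p = 0.357), with a 95% interval from -0.03 to 0.46. Abcg2, a second efflux pump, and the thyroid hormone and organic anion carriers Slco1c1 and Slco1a4 changed by between -0.14 and 0.10 over the 3 days.

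The 3 tight junction genes gave no call on any day, and their median changes were -0.03, -0.01 and -0.05. Cldn5, the claudin that seals brain endothelium, had 7.82, 7.68, 7.82 and 7.49 in the controls and 7.64, 7.56, 7.56, 7.77 and 7.46 on day 10. It ran from 7.50 through 7.69 to 7.94 on day 14 and from 7.50 through 7.65 to 7.80 on day 17, so all groups overlapped. Its changes were -0.11 ± 0.08, -0.01 ± 0.08 and -0.05 ± 0.08 (limma adjusted p = 0.68, 0.98 and 0.791), and the 95% interval on day 17 ran from -0.22 to 0.12.

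Tjp1, the ZO-1 scaffold that links junction proteins to actin in many cell types, had 8.43, 8.50, 8.63 and 8.56 in the controls and 8.48, 8.58, 8.45, 8.54 and 8.56 on day 10. Day 14 gave 8.26, 8.43 and 8.54 as lowest, median and highest, and day 17 gave 8.36, 8.44 and 8.47. The groups overlapped, with 3 of 7 day 14 arrays and 2 of 6 day 17 arrays below every control, and the changes of -0.10 ± 0.05 on both did not pass the test (limma adjusted p = 0.507 and 0.368). Ocln, the occludin gene, had differences of -0.03, 0.05 and 0.05 (SE 0.10 each).

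Of the 5 adhesion molecules, Icam1 rose on day 17 and the other 4 gave no call. Icam1, the ligand of leukocyte integrins, had 4.58, 4.47, 4.64 and 4.38 in the controls and 4.96, 4.98, 4.77, 4.95 and 4.98 on day 10. Its lowest, median and highest values were 4.57, 4.90 and 5.33 on day 14 and 4.81, 4.96 and 5.42 on day 17. Every day 10 and day 17 array lay above every control, and on day 14 the 2 lowest arrays lay within the control range. The change was 0.41 ± 0.13 on day 10 (limma adjusted p = 0.271), 0.38 ± 0.12 on day 14 (adjusted p = 0.232) and 0.53 ± 0.13 on day 17 (adjusted p = 0.0432), the last being 1.44-fold.

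The Icam1 promoter is shown because it alone among the windows of called members held the NF-kB form, a site class through which cytokines act on this gene. Its 250 bases before the start lie at chr9:21015690-21015939 on the plus strand, with minus-strand matches in capitals, 153 and 84 bases before the start.
Icam1: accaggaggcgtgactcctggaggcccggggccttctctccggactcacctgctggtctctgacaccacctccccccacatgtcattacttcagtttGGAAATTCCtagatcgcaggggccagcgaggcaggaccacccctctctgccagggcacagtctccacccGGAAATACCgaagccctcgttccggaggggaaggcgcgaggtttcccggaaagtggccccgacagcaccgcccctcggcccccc

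Vcam1, the adhesion molecule for lymphocytes and monocytes, had 6.92, 6.72, 6.89 and 6.96 in the controls and 7.09, 7.00, 6.79, 7.38 and 7.07 on day 10. Its lowest, median and highest values were 6.73, 6.95 and 7.40 on day 14 and 6.67, 6.87 and 7.10 on day 17. All groups overlapped, and the changes were 0.19 ± 0.11, 0.14 ± 0.11 and -0.00 ± 0.11 (limma adjusted p = 0.562, 0.676 and 0.998). Sele lay close to background, between 3.82 and 4.42, and its day 17 arrays were all above the controls without passing the test (0.21 ± 0.07, adjusted p = 0.153). Icam2, which endothelium carries at rest, changed by between -0.04 and 0.01, and Selp, below background, by 0.14 to 0.17.

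Vwf gave the largest change of any member. It encodes von Willebrand factor, which endothelium and megakaryocytes make. Its values were 5.75, 5.40, 5.58 and 6.00 in the controls and 6.71, 7.07, 6.16, 7.28 and 6.64 on day 10. The lowest, median and highest values were 6.10, 7.10 and 7.94 on day 14 and 6.53, 7.26 and 7.53 on day 17. Every tumour-bearing array lay above every control. The change was 1.09 ± 0.27 on day 10, which did not pass the test (limma adjusted p = 0.16), 1.44 ± 0.25 on day 14 (adjusted p = 0.0113) and 1.50 ± 0.26 on day 17 (adjusted p = 0.00514), the last being 2.84-fold.

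**Figure D2:**
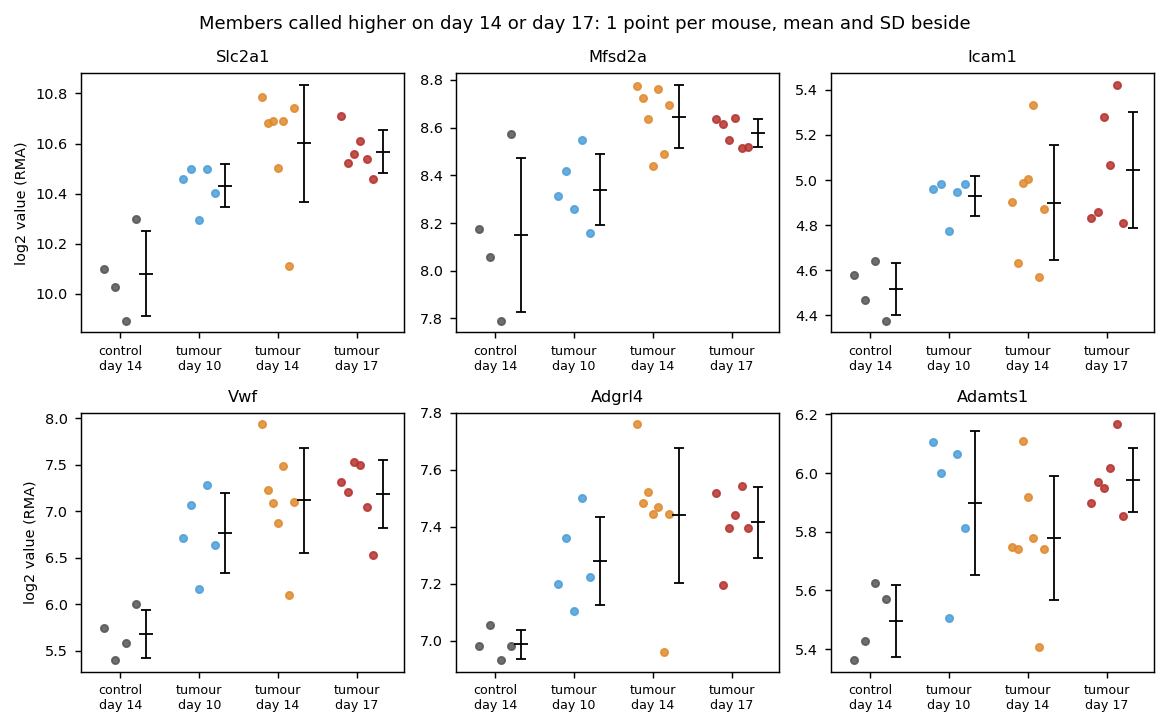
Log2 value (RMA, vertical axis) of the 6 called members in each mouse of the 4 groups, with the group mean and SD beside the points; each panel has its own axis. Vwf shows no overlap between the controls (5.40 to 6.00) and any tumour-bearing group, whereas in Slc2a1 and Adgrl4 a day 14 array lies within the control range.

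Adgrl4, an adhesion receptor of endothelium that platform tables may list as Eltd1, had 6.98, 7.05, 6.93 and 6.98 in the controls and 7.20, 7.36, 7.10, 7.50 and 7.23 on day 10. Day 14 ran from 6.96 through 7.47 to 7.76 and day 17 from 7.20 through 7.42 to 7.54. All arrays of days 10 and 17 lay above the controls, and replicate 6 of day 14 did not. The change was 0.29 ± 0.11 on day 10 (limma adjusted p = 0.343), 0.45 ± 0.10 on day 14 (adjusted p = 0.0651) and 0.43 ± 0.10 on day 17 (adjusted p = 0.0453). The Adgrl4 window held a hypoxia core 72 bases and a glucocorticoid form 211 bases before the start, and the Adamts1 window held none of the 3 motifs.

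Adamts1, a secreted protease that cleaves matrix proteoglycans and is not restricted to endothelium, had 5.36, 5.43, 5.63 and 5.57 in the controls and 6.11, 6.00, 5.51, 6.06 and 5.81 on day 10. Its lowest, median and highest values were 5.41, 5.75 and 6.11 on day 14 and 5.85, 5.96 and 6.17 on day 17. Day 17 alone was free of overlap with the controls. The change was 0.40 ± 0.12 on day 10 (limma adjusted p = 0.219), 0.28 ± 0.11 on day 14 (adjusted p = 0.353) and 0.48 ± 0.11 on day 17 (adjusted p = 0.0408).

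The other 12 general endothelial genes gave no call in either direction in the fit as reported. With the replicate number as a block, Esam was called on days 14 and 17 and Egfl7 on day 14. Pecam1 and Esam, adhesion proteins of endothelial contacts, changed by 0.31 ± 0.10 and 0.32 ± 0.10 on day 17 (limma adjusted p = 0.118 and 0.119). Plvap, the diaphragm protein of leaky vessels, changed by 0.21 ± 0.11, 0.16 ± 0.10 and 0.24 ± 0.10 (adjusted p = 0.51, 0.61 and 0.252). Cdh5, the VE-cadherin of endothelial contacts, changed by 0.15, 0.20 and 0.14, and the lineage genes Cd34, Eng, Egfl7, Ramp2, Robo4 and Nos3 by between -0.07 and 0.31.

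Emcn and S1pr1 ran the other way without passing the test as reported, though each passed in some alternative fits. Emcn, a sialomucin of capillary and venous endothelium, had 7.18, 7.17, 7.21 and 6.56 in the controls, 6.78 to 7.02 on day 10, 6.39 to 6.88 on day 14 and 6.47 to 6.79 on day 17. Control 4 stood far below the other 3 controls, so the groups overlapped, and the changes were -0.42 ± 0.11 on day 14 and -0.37 ± 0.11 on day 17 (limma adjusted p = 0.111 and 0.101). Without control 4, Emcn was called lower on days 14 and 17 and in the F test, and without replicate 6 of day 14 it was called lower on day 14. S1pr1, a sphingosine-1-phosphate receptor that astrocytes also carry, ran from 8.75 to 8.87 in the controls, 8.54 to 8.71 on day 14 and 8.49 to 8.71 on day 17. All arrays of both later days lay below every control, with a change of -0.20 ± 0.06 on day 17 (adjusted p = 0.0738). S1pr1 was called lower on day 17 with a mean-variance trend, with array weights and when only genes above background were tested.

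**Figure D3:**
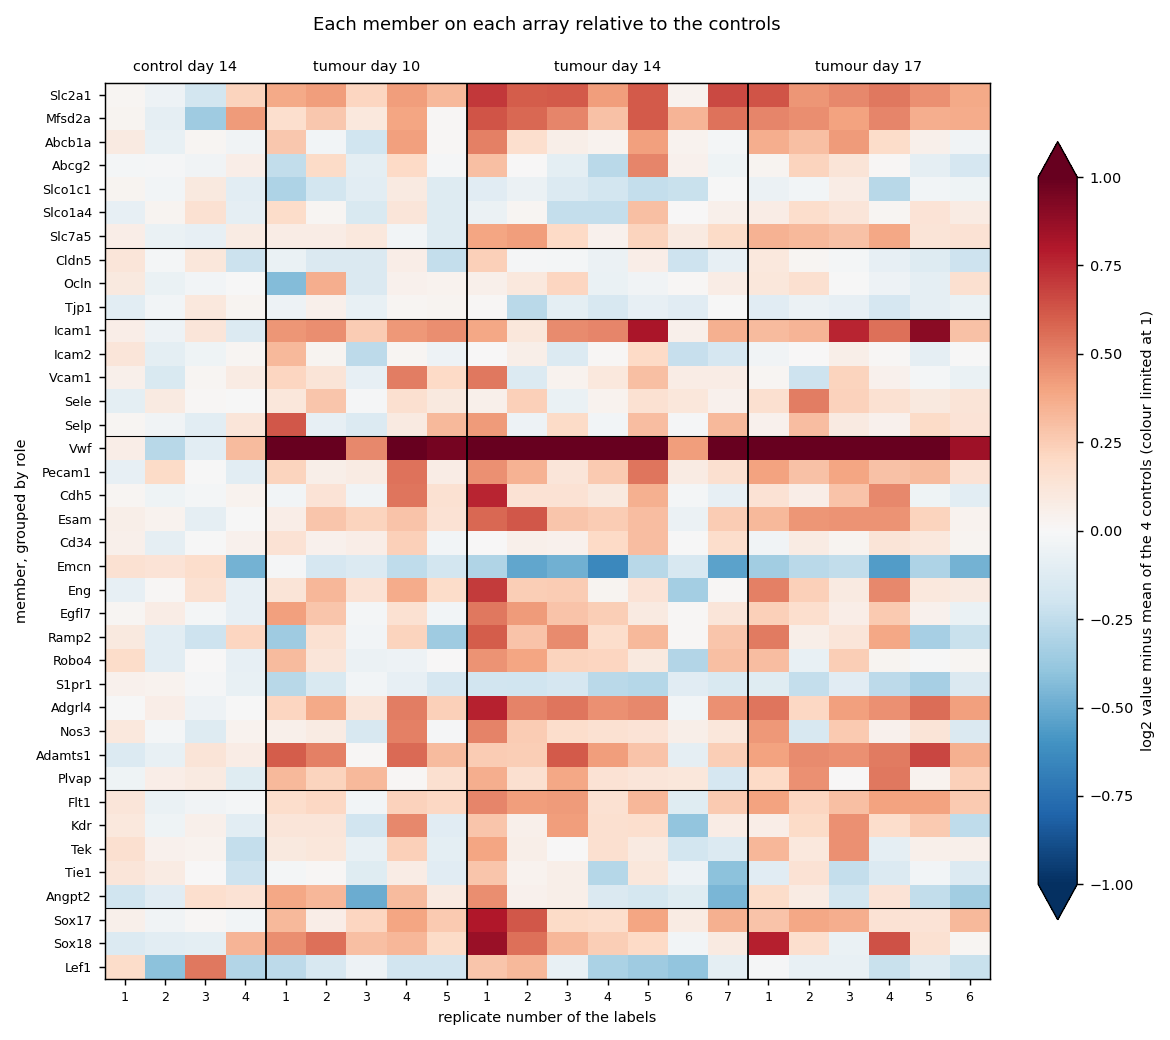
Each cell is the log2 value of a member (rows, grouped by role) on an array (columns, by group and replicate number) minus the mean of the 4 controls, with the colour limited at 1. Vwf is high on nearly all tumour-bearing arrays, Emcn is low on most of them, and replicate 6 of day 14 is paler than the other day 14 arrays.

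The VEGF and angiopoietin genes gave no call in the fit as reported. Flt1, the VEGF receptor that also acts as a decoy, had 7.99, 7.80, 7.83 and 7.85 in the controls and 8.04, 8.08, 7.84, 8.10 and 8.08 on day 10. Its lowest, median and highest values were 7.74, 8.20 and 8.36 on day 14 and 8.08, 8.22 and 8.27 on day 17. Day 17 lay wholly above the controls, with a change of 0.33 ± 0.09 that did not pass the test (limma adjusted p = 0.0708). Flt1 was called higher on day 17 in 6 of 19 alternative settings, array weights and median centring among them. The same held in 1 of 22 fits that each left out 1 array. Kdr, the main signalling VEGF receptor, Tek and Tie1, the angiopoietin receptor and its partner, and Angpt2 changed by between -0.09 and 0.15.

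Of the transcription factors, Sox17 had 4.97, 4.88, 4.93 and 4.90 in the controls and 5.25, 4.99, 5.13, 5.31 and 5.18 on day 10. Its lowest, median and highest values were 5.00, 5.27 and 5.72 on day 14 and 5.06, 5.22 and 5.30 on day 17, so every tumour-bearing array lay above every control. The changes in Sox17 of 0.25 ± 0.11, 0.38 ± 0.10 and 0.27 ± 0.10 did not pass the test (limma adjusted p = 0.42, 0.139 and 0.198). Sox18 changed by 0.37, 0.32 and 0.28 with SE of 0.17, 0.16 and 0.16. Lef1 changed by -0.17, -0.09 and -0.12 with SE of 0.15 to 0.16, and its controls had an SD of 0.43.

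No member differed between tumour-bearing days after adjustment. At the same threshold limma called 0 of 38 members between days 14 and 10, where 0.00531% of all genes were called, and 0 between days 17 and 10 and between days 17 and 14, where 0% of genes were. At an unadjusted p below 0.05, day 14 against day 10 gave 3 members higher and 1 lower (background 3.04% and 4.09%), and day 17 against day 10 gave 2 higher and 1 lower (3.08% and 5.22%). Day 17 against day 14 gave 0 and 0 (1.82% and 2.35%). Mfsd2a and Slc7a5 were the higher members in both comparisons with day 10: Mfsd2a by 0.31 ± 0.10 and 0.24 ± 0.10 and Slc7a5 by 0.20 ± 0.07 and 0.25 ± 0.07 (adjusted p from 0.323 to 0.552). Since Slc2a1, Vwf and Icam1 already had changes of 0.35, 1.09 and 0.41 on day 10, a call on day 17 and none on day 10 does not show that the days differ.

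Replicate 6 of day 14 stood apart among the day 14 arrays. Its mean over the 38 members was 6.32, below the lowest control at 6.33, while the medians of the tumour-bearing groups were 6.52 on day 10, 6.55 on day 14 and 6.57 on day 17. Without it, 8 members were called on day 14 in place of 3: Esam, Adgrl4, Flt1 and Sox17 were higher and Emcn was lower beside Slc2a1, Mfsd2a and Vwf. The calls over all genes rose too, from 41 to 115, so the move was not limited to the members. The day 14 change of Vwf was then 1.60 and that of Slc2a1 0.60, and 7 members were called on day 17.

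The counts also moved with other arrays. Leaving out control 1, 2 or 3 left 0 members called on day 14 and 1, Vwf, on day 17. Calls over all genes fell alike, from 41 to 4, 2 and 2 on day 14 and from 211 to 37, 59 and 56 on day 17. Leaving out replicate 4 of day 17 also left 1 on day 17, with 74 over all genes. Without replicate 6 of day 17 the day 17 count was 8, with 382 over all genes, Slc7a5 and Esam being the added members, and 2 or 3 remained without replicate 1, 2, 3 or 5 of day 17, replicate 2 of day 10 or replicate 7 of day 14. The F test called 0 members without control 1, 2 or 3, 4 without control 4 and 5 without replicate 6 of day 14. Over the 22 fits that each left out 1 array, the day 17 call was kept in 22 for Vwf, 18 for Slc2a1, 14 for Adamts1, 10 for Icam1 and 8 each for Mfsd2a and Adgrl4. The day 14 call was kept in 19 for Slc2a1, 19 for Vwf and 13 for Mfsd2a. The signs of the 6 called members were kept in each of these fits.

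Other endothelial genes were listed from textbook knowledge, with earlier results of these data known, to set beside the members. Of 28 such genes, 0 were called on any day, with medians of 0.10, 0.02 and 0.04. At an unadjusted p below 0.05, 3, 7 and 3 were higher and 0, 1 and 3 lower on days 10, 14 and 17. Over all genes, 5.27%, 4.28% and 6.13% were higher and 5.43%, 6.18% and 10.5% lower at that threshold. Grrp1 had the smallest p on day 10 (0.30 ± 0.07, limma adjusted p = 0.139), the factor Gata2 on day 14 (0.46 ± 0.13, adjusted p = 0.185) and Itm2a on day 17 (-0.43 ± 0.12, adjusted p = 0.0789). With the mean of these genes as a covariate, 18, 25 and 27 of 38 members had a change above 0 on days 10, 14 and 17. The median member change was then -0.03, 0.09 and 0.07. Limma called 0 members on day 10, 2 on day 14 (Slc2a1 and Vwf) and 4 on day 17 (Slc2a1, Vwf, Adgrl4 and Adamts1), with 0, 26 and 171 over all genes. The day 17 change of Vwf was then 1.34 ± 0.17 (limma adjusted p = 0.00114) and that of Slc2a1 0.45 ± 0.09 (adjusted p = 0.0241).

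Of 23 other barrier transporters, 0 were called on days 10 and 14, where 0.106% and 0.218% of all genes were. At an unadjusted p below 0.05, 3 were higher and 3 lower on day 10 (background 5.27% and 5.43%) and on day 14 (4.28% and 6.18%). On day 17, 2 rose and 2 fell, against 1.12% of all genes (0.436% higher). The transferrin receptor gene Tfrc, by which the barrier and maturing red cells take up iron, rose by 0.41 ± 0.07 (limma adjusted p = 0.00514), and the taurine carrier Slc6a6 by 0.33 ± 0.08. The glutamine carrier Slc38a3, which is also in astrocytes, and the zinc carrier Slc39a10 were lower, with changes of -0.30 ± 0.06 and -0.32 ± 0.07. On days 10 and 14 the smallest p were those of Slc38a5 (0.42 ± 0.10, adjusted p = 0.164) and of Tfrc and Slc38a3 (0.28 ± 0.07 and -0.24 ± 0.06, both adjusted p = 0.0982). Among 18 other tight and adherens junction genes, 1 was called, on day 17, where 1.12% of all genes were. This was Jam2, a junctional adhesion molecule, lower by -0.30 ± 0.06 (limma adjusted p = 0.0193). At an unadjusted p below 0.05, 3, 0 and 1 of the 18 were higher and 2, 2 and 5 lower on days 10, 14 and 17. The day 17 background was 6.13% and 10.5%, and the median change of the list on that day was -0.06.

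The 16 genes of the Wnt pathway that maintains barrier vessels gave no call. At an unadjusted p below 0.05, 1 was higher and 0 lower on day 10 (background 5.27% and 5.43%). On day 14, 0 were higher and 7 lower (background 4.28% and 6.18%), with a median of -0.12. On day 17, 0 were higher and 6 lower (background 6.13% and 10.5%), with a median of -0.11. Ndp, the norrin ligand, had the smallest p on day 14 (-0.20 ± 0.07, limma adjusted p = 0.331) and the ligand gene Wnt7b on day 17 (-0.24 ± 0.09, adjusted p = 0.203). Of 23 VEGF, angiopoietin and Notch genes, 1 was called, on day 17, where 1.12% of all genes were. This was Apln, a peptide of growing vessels that neurons also make, lower by -0.38 ± 0.09 (limma adjusted p = 0.0414). At an unadjusted p below 0.05, 2, 2 and 2 of the 23 were higher and 0, 1 and 3 lower on days 10, 14 and 17. Vegfa, the ligand of Flt1 and Kdr, changed by 0.41 ± 0.10, 0.35 ± 0.09 and 0.31 ± 0.10 without passing the test (adjusted p = 0.16, 0.137 and 0.112).

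Of 36 genes of leukocyte recruitment and activated endothelium, 4 rose on day 10, 2 on day 14 and 3 on day 17, and 0 fell. Over all genes, 0.101%, 0.197% and 0.436% were called higher on these days. The interleukin-1 receptor gene Il1r1 rose by 0.91 ± 0.18, 0.91 ± 0.17 and 0.78 ± 0.17, and the oncostatin M receptor gene Osmr by 0.65 ± 0.13, 0.69 ± 0.12 and 0.56 ± 0.12 (limma adjusted p from 0.00966 to 0.041). On day 10 the prostaglandin synthase gene Ptgs2 rose by 1.15 ± 0.20 and the chemokine gene Cxcl10 by 0.93 ± 0.17, and on day 17 the sterol hydroxylase gene Ch25h rose by 1.03 ± 0.18. These genes are made by several brain cell types.

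Markers of blood and of other vessel cells were measured on the same arrays. Some red cell and reticulocyte markers rose with the members: 0, 2 and 3 of 8 were called on days 10, 14 and 17. The shares of all genes called higher were 0.101%, 0.197% and 0.436%. Alas2, the haem synthesis enzyme of red cells, rose by 2.42 ± 0.34 on day 17. Slc4a1 was also called on days 14 and 17. Only 4 of the 8 lay above the background measure, and Rhag, called on day 17 only, had a mean of 2.62. The median change over the 8 markers was 0.13, 0.18 and 0.26 on the 3 days. The mean log2 value of the 8 markers ran from 4.01 to 4.35 in the controls, 4.31 to 4.73 on day 10, 4.42 to 4.91 on day 14 and 4.65 to 5.25 on day 17. With that mean as a covariate, limma called 0 members and 0 of all genes on each day. At an unadjusted p below 0.05, 0 members were then higher and 2 lower on day 17, and the median member change was -0.05. The day 17 change was then 0.34 ± 0.32 for Vwf, 0.18 ± 0.15 for Slc2a1, 0.10 ± 0.16 for Mfsd2a and 0.25 ± 0.20 for Icam1. The red cell ranges of controls and of days 14 and 17 did not overlap, so the marker level and the group cannot be told apart in that fit.

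Platelets also hold Vwf transcripts. Of 8 platelet and megakaryocyte markers 0 were called (0, 0 and 1 higher at an unadjusted p below 0.05), and their mean was near the background measure, from 3.99 to 4.18 in the controls, 4.03 to 4.25 on day 10, 4.05 to 4.44 on day 14 and 4.07 to 4.48 on day 17. Ppbp and Treml1 had the highest levels of that list, and Ppbp changed by -0.04 ± 0.36, 0.48 ± 0.33 and 0.76 ± 0.34 (limma adjusted p = 0.982, 0.645 and 0.269). Of 13 markers of circulating leukocytes 0 were called, but only 2 lay above the background measure, so the absence of calls says little. At an unadjusted p below 0.05, 2, 4 and 3 were higher on days 10, 14 and 17 (background 5.27%, 4.28% and 6.13%). Their mean ran from 3.32 to 3.50 in the controls, 3.40 to 3.67 on day 10, 3.39 to 3.68 on day 14 and 3.50 to 3.72 on day 17. The part of platelets and leukocytes in the members' changes was not tested.

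Of 13 mural cell markers (pericytes and smooth muscle) and 10 fibroblast markers, 0 were called on any day, and at an unadjusted p below 0.05 1 mural and 0 fibroblast markers were higher on each day. The mural mean ran from 5.81 to 5.83 in the controls and from 5.74 to 6.53 in tumour-bearing mice, and the fibroblast mean from 5.78 to 6.29 and from 5.50 to 6.91. Replicate 1 of day 14 held the highest mural mean, 6.53, and the highest mean over the 38 members, 6.77. With the mural and fibroblast mean as a covariate, 2 members stayed called on day 17. These were Vwf at 1.41 ± 0.19 and Slc2a1 at 0.47 ± 0.10 (limma adjusted p = 0.000853 and 0.0275). On day 14 the same members were called (1.22 ± 0.19 and 0.49 ± 0.10). Calls over all genes in that fit were 164 on day 17 and 34 on day 14.

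Markers of neurons lay lower in tumour-bearing mice. The mean of 9 neuron markers was 10.22 to 10.34 in the controls, 10.15 to 10.21 on day 10, 10.11 to 10.21 on day 14 and 10.09 to 10.21 on day 17, so every tumour-bearing array lay below every control. All 9 had a lower mean on each day, and 1 was called, Nefl, a neurofilament gene, which was lower on day 17 (-0.23 ± 0.06, limma adjusted p = 0.0445). Of 9 microglia markers, 1 was called lower on days 14 and 17, Fcrls (-0.43 ± 0.09 and -0.70 ± 0.09). The microglia mean ran from 6.02 to 6.15 in the controls and 5.80 to 6.05 on day 17. Over all genes, 0.218% were called on day 14 and 1.12% on day 17. The part of neurons and microglia in the members' changes was not tested.

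**Figure D4:**
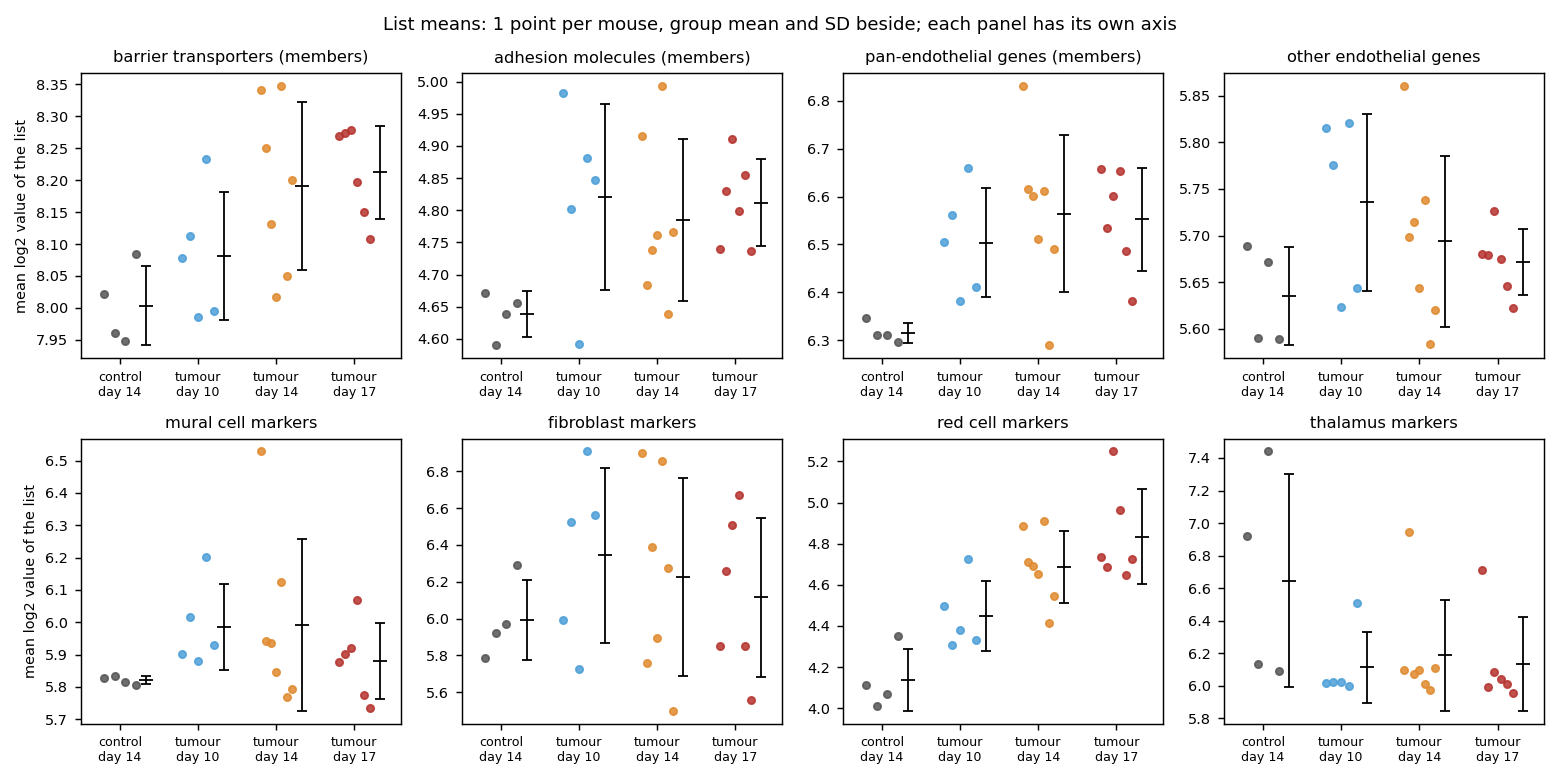
Mean log2 value of 8 gene lists in each mouse of the 4 groups (points), with the group mean and SD beside; each panel has its own axis. The general endothelial members and the red cell markers are higher in tumour-bearing mice, the other endothelial and fibroblast genes overlap throughout, and 4 arrays stand out for thalamus markers.

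The tissue label was checked with 9 markers of the thalamus, which borders the dissected region. Their mean was 7.44 in control 3, 6.95 in replicate 2 of day 14, 6.92 in control 1 and 6.71 in replicate 1 of day 17, and between 5.96 and 6.51 on the other arrays. Lef1, which thalamic neurons also express, was 6.73, 6.53, 6.39 and 6.19 on these 4 arrays and between 5.79 and 6.48 elsewhere. Without the 4 arrays, which left 2 controls, limma called 0 members and 0 of all genes on any day. At an unadjusted p below 0.05, 9 members were then higher and 1 lower on day 17, and the day 17 changes were 1.46 ± 0.37 for Vwf, 0.38 ± 0.13 for Slc2a1, 0.25 ± 0.12 for Mfsd2a and 0.66 ± 0.16 for Icam1. With the thalamus mean as a covariate, 1 member was called on day 17, Vwf at 1.54 ± 0.30 (limma adjusted p = 0.0192), with 83 over all genes. The mean of 12 hypothalamus markers ran from 7.58 to 7.78 in the controls and, wholly below them, from 7.36 to 7.54 on day 10. It ran from 7.58 to 7.76 on day 14 and 7.36 to 7.64 on day 17. The mean of 7 pituitary markers was 3.78 to 4.38 in the controls and overlapped that range in each tumour-bearing group. The part of these lists in the members' changes was not tested.

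The order of the deposited arrays showed a small step in the spread of values that the labels do not name as a batch. The first 9 arrays (1 control, 2, 3 and 3 mice of days 10, 14 and 17) had SDs over probe sets of 2.22 to 2.27 and the last 13 of 2.27 to 2.32. Within the first 9 the day 17 change was 1.60 ± 0.30 for Vwf, 0.50 ± 0.12 for Slc2a1 and 0.41 ± 0.20 for Icam1, and within the last 13 it was 1.36 ± 0.34, 0.46 ± 0.14 and 0.60 ± 0.17. In the last 13 limma called 0 members and 0 of all genes on day 17. At an unadjusted p below 0.05, 10 members were higher and 3 lower there. The fit of the first 9 was added after seeing the data. Its lone control was assumed to vary like the other groups, so no count of calls is given for it.

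**Figure D5:**
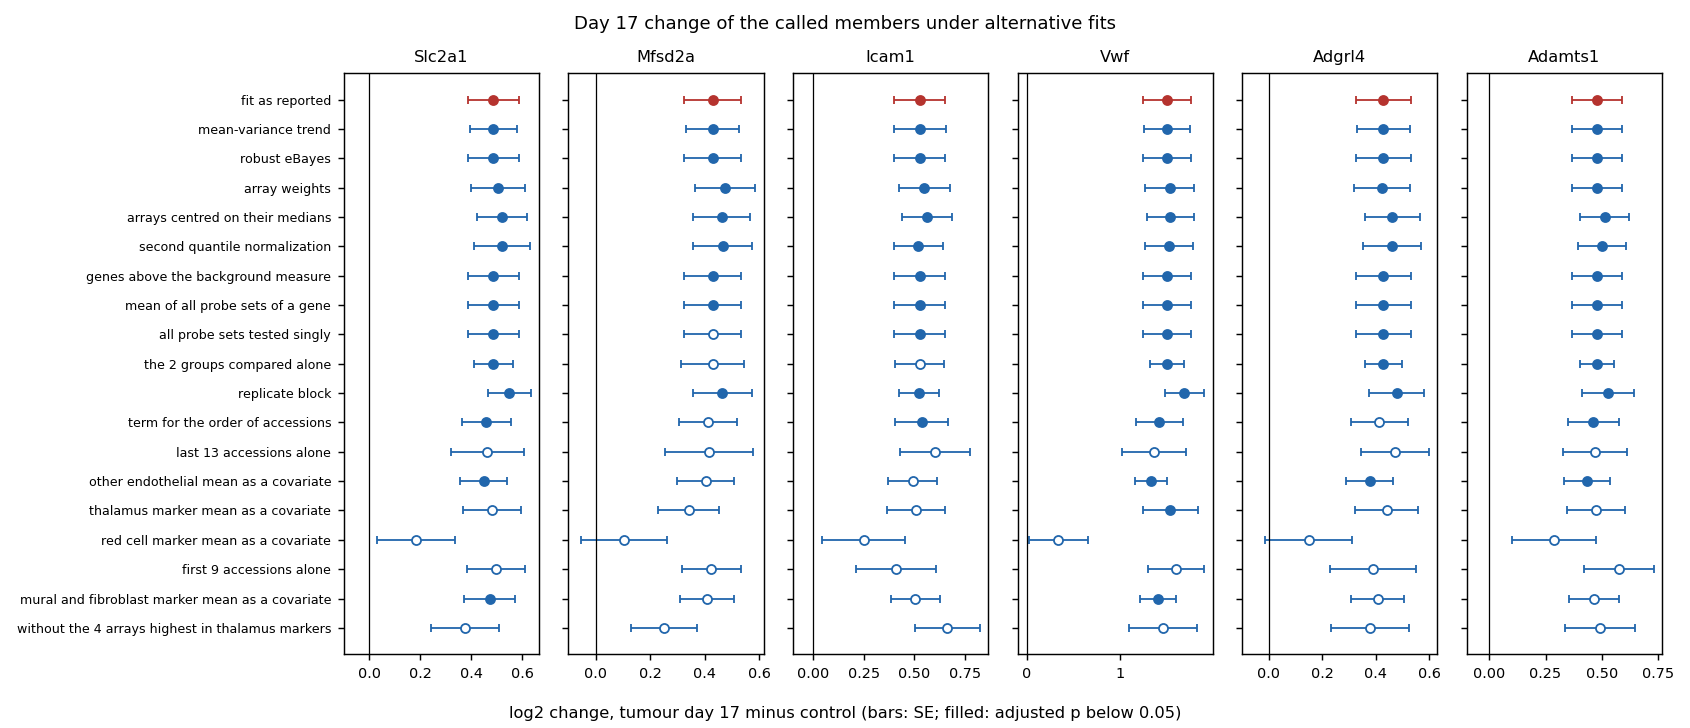
Day 17 change of the 6 called members (horizontal axis, log2, tumour-bearing minus control, bars SE) in the fit as reported and under 18 alternatives (rows); filled points have an adjusted p below 0.05. All points lie to the right of 0, and those with the red cell mean as a covariate lie nearest to it.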

How the data were processed

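RNA of an integrity number above 8.0 was hybridised to whole-transcript arrays, per the labels' protocols. The deposited table is on the log2 scale, made by the authors with RMA (background correction, normalization between arrays, summary of probes), per the submitters' processing notes; its version and the annotation are not given in the sources used here. RMA compresses folds near background. The table held 35556 probe sets, of which 21218 were paired with 1 gene, 1881 with several and 12457 with none. The probe set with the highest mean stood for each of 18820 genes, with names checked in RefSeq GRCm38.p6, and 1 member had several probe sets. No filter was applied. The background measure was the 95th percentile over the 1182 probe sets for olfactory or vomeronasal receptors.

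Group means were fitted to 22 arrays with limma 3.58.1 in R 4.3.3 (18 residual degrees of freedom, two-sided, Benjamini-Hochberg). The number of arrays limits the precision. On simulated data at day 17, 78% of changes of 0.5 and 99% of changes of 1 were recovered among 18820 genes. The simulated noise was independent from gene to gene and held no shared shifts such as that of the thalamus markers. These shares may therefore overstate what the real arrays could recover. The members, lists and motifs were chosen with earlier results of these data known. The named members are all called ones, Slc2a1, Cldn5, Vwf, Abcb1a, Icam1, Vcam1 and the one of smallest p per role; of other lists, up to 4 called genes or the one of smallest p, and of markers the most abundant. Adgrl4, Emcn, S1pr1, Slc7a5 and other members beyond that rule were described after their values were seen. Alternatives covered the fit, scaling, probe set choice, replicate numbers as a block, order, tissue and cell markers and each array left out.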

Additional observations from a re-analysis of the deposited data

Results flagged for a closer look

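Of 152 sets of a member in a group, 7 held an array far from the rest, and chance flags about 1 in 20 such sets. Replicate 6 of day 14 was the lowest of its group for Slc2a1 (10.111, the next array at 10.50) and Adgrl4 (6.9613, the next at 7.44), both within the control range. Replicate 3 of day 10 was the lowest of its group for Icam1 (4.7739, the next at 4.95) and Flt1 (7.8422, the next at 8.04). Control 4 was the lowest control for Emcn (6.5636, the next at 7.17) and the highest for Sox18 (5.5246, the next at 5.09). Replicate 2 of day 17 was the highest of its group for Sele (4.4246, the next at 4.14). Between tumour-bearing days 0 of 38 members passed limma's threshold, and at an unadjusted p below 0.05 at most 3 were higher and 1 lower in any of these comparisons.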

How the results depend on the processing

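The 6 called members kept their direction under every alternative run, and no count of calls between tumour-bearing days moved from 0 past the threshold in limma. On day 10 the count of 0 became 1 (Vwf) with array weights, while calls over all genes went from 20 to 76. On day 14 the count of 3 became 0 when the 2 groups were compared alone, with the red cell mean as a covariate and in the last 13 arrays alone. In each of these fits 0 of all genes were called, against 41 in the fit as reported. With the thalamus covariate 0 members and 10 of all genes were called. Without the 4 arrays high in thalamus markers, a fit added after seeing the data, both counts were 0. The count was 4, Adgrl4 being added, with a mean-variance trend, after median centring or with only genes above background. Calls over all genes were then 93, 48 and 68. Leaving out 1 array gave 0 to 8. On day 17 the count of 6 became 0 in the last 13 arrays alone and with the red cell covariate, each with 0 of all genes called. It became 1 with the thalamus covariate, where calls over all genes went from 211 to 83. In fits added after seeing the data it was 2 with the mural and fibroblast covariate and 0 without the 4 arrays. These had 164 and 0 calls over all genes. It was 4 with a term for array order and 5 with the 2 groups alone. The count rose to 9 with a mean-variance trend or array weights, and to 8 after median centring or with only genes above background. Calls over all genes were then 323, 457, 186 and 305. Leaving out 1 array gave 1 to 8. The count of 2 in the F test became 4 with a mean-variance trend and 1 after a second quantile normalization, and ran from 0 to 5 with 1 array left out. The cause of these moves was not tested.

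Arrays of equal replicate number deviated together somewhat more at the median than arrays of different number. Over 28 pairs of equal number, deviations correlated from -0.19 to 0.35 (median 0.12). Over 151 pairs of different number, they correlated from -0.28 to 0.50 (median -0.01), so the ranges overlapped. Whether the replicate numbers pair the mice was not tested. With the replicate number as a block, 7 members were called on day 14, 10 on day 17 and 5 in the F test, while calls over all genes went from 41 to 140, from 211 to 616 and from 63 to 153. Emcn was among them, lower, on both days. Cldn5 changed sign on days 14 (0.056) and 17 (0.002) and Vcam1 on day 17 (0.0044).

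Sign changes otherwise concerned members that were not called. Abcb1a was -0.12, -0.21 and -0.27 on days 10, 14 and 17 with the red cell covariate, -0.12 on day 10 with the other endothelial mean and -0.021 with the mural and fibroblast mean. Vcam1 was -0.015 and -0.23 on days 10 and 14 and Sox17 -0.031 on day 17 with the red cell covariate. Cldn5 without the 4 arrays was 0.013, 0.11 and 0.035 on the 3 days. With the thalamus covariate it was 0.046 and 0.0102 on days 14 and 17, and on day 14 it was 0.0041 after median centring and 0.017 after quantile normalization. Its day 14 value ran from -0.081 to 0.031 with 1 array left out. Tjp1 on day 10 was 0.0145 after centring, 0.02 after quantile normalization and 0.10 in the first 9 arrays, and from -0.041 to 0.028 with 1 array left out, and on day 17 it was 0.0176 in the first 9. Vcam1 on day 17 was 0.027 with array weights, 0.0325 after centring, 0.033 after quantile normalization, 0.03 without the 4 arrays, 0.0021 in the last 13, and from -0.052 to 0.0397 with 1 array left out. The cause was not tested.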
